A study of Mus musculus with 15 samples.

Results

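The genes described here are the 13 protein-coding genes of the mitochondrial genome and 34 nuclear genes that encode subunits of respiratory complex I, the Nduf genes. The mitochondrial genes lie within chrM:2751-15288 (GRCm38) and the nuclear ones on many chromosomes. They were chosen by symbol from a list written for this work, and all 47 were found among the 45706 genes of each deposited table. The study concerns SRF, a transcription factor of cytoskeletal and immediate-early genes, in oligodendrocyte precursor cells (OPCs) and in the oligodendrocytes (OLs) that form from them. Cells were purified by immunopanning from the brains of SRF-floxed/floxed mice, so controls and knockouts carried the same floxed alleles. Control OPCs (4 libraries) received an AAV DJ-CMV eGFP-deleted cre, SRF-KO OPCs (3 libraries) received AAV DJ-CMV eGFP-cre, and both were infected after day 3 of culture and frozen 48 hours later. Control OLs (4 libraries) received a lentivirus with GFP and SRF-KO OLs (4 libraries) a lentivirus-CRE-IRES-GFP on day 6, followed by differentiation medium until day 3 of differentiation. Ages are not given, no group had Cre without floxed alleles, and the 2 stages differ in virus, so effects of Cre itself and of SRF loss cannot be told apart. The labels do not say that replicates came from separate animals, and p-values therefore measure the spread between these cultures, which may be technical.

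Complex I takes electrons from NADH at the entry of the respiratory chain and pumps protons across the inner mitochondrial membrane. It is built from both genomes: the ND proteins of its membrane arm are encoded in mitochondrial DNA, while the core subunits of the matrix arm and all accessory subunits are nuclear and imported. Mitochondrial DNA also encodes cytochrome b of complex III, 3 subunits of cytochrome c oxidase (complex IV) and 2 of ATP synthase (complex V). Its genes are transcribed as long precursors that are cut into separate RNAs, whereas each Nduf gene has its own nuclear promoter. Maturing oligodendrocytes make large amounts of membrane and are known for a high metabolic demand.

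Expected counts summed to 8964310 to 16026511 per control OPC library, 9074812 to 15125229 per SRF-KO OPC library, 7188698 to 13139258 per control OL library and 4303739 to 11721394 per SRF-KO OL library. Levels are given as CPM, a gene's counts relative to the library's total. Srf itself had 5.49 to 9.82 CPM in control OPCs and 0.198 to 0.22 in SRF-KO OPCs, and in OLs 6.61 to 8.47 with the control virus against 2.37 to 4.54 with Cre. The myelin genes Mog, Mag, Mobp and Opalin stayed under 1 CPM in every OPC library, and all 8 OL markers reached 1 CPM in the OLs, where they summed to 22160 to 32250 CPM in controls and 14400 to 21340 in knockouts. Astrocyte markers were also abundant in the OL cultures, with a summed level of 17900 to 27850 CPM in the control cultures of that stage and of 8277 to 14270 in the knockouts, against 882.5 to 985 in control and 1089 to 1181 in SRF-KO OPCs. Most of the OL sums came from a single marker, Gfap, with 13350 to 23470 CPM in control and 4935 to 9598 in SRF-KO OLs. In OPC libraries the OPC markers summed to 6482 to 6861 CPM in controls and 4971 to 6481 in knockouts, so that the 2 ranges all but touched. The OL markers summed to 427.9 to 471.9 CPM in control and 480.2 to 519.8 in SRF-KO OPCs. In such bulk samples fewer cells of a type and less RNA per cell cannot be told apart, and the part of these shifts in the values below was not tested. SRF-KO OL replicate 4 stood apart from its group in many members, so OL results are given with and without it.

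The sequences of these genes bear on how reads can be counted. Mouse chromosome 1 carries an insertion of mitochondrial DNA, annotated as a row of pseudogenes. Of the 13 mitochondrial genes, 7 have an annotated same-strand copy there that is at least 98% identical over at least 100 bases. Only annotated transcripts were searched, so a copy without annotation would not be found. For mt-Co3, a cytochrome c oxidase subunit, the copy Gm28437 (chr1:24613189-24613971, minus strand, GRCm38) matched 783 of the gene's 784 bases at 100% identity. A read of 63 bases, the read length here, such as the window chrM:8907-8969 of mt-Co3, is therefore the same in both.
mt-Co3: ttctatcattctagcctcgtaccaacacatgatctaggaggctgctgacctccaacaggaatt
Gm28437: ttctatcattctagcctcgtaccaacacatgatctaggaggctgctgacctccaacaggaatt
For mt-Cytb, cytochrome b, no annotated copy reached 98%, and the nearest, Gm11410, was 92.9% identical over 1142 bases. Its 63-base window from chrM:14445-14507 holds 7 mismatches, shown in capitals, by which a read can be placed.
mt-Cytb: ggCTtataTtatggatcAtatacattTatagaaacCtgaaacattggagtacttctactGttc
Gm11410: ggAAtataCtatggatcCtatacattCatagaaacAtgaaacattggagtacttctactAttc
Among the nuclear members, Ndufa12, Ndufb4, Ndufs3 and Ndufs5 have a processed pseudogene, a copy made from spliced RNA. The window across an exon junction of Ndufs3 (chr2:90894634-90904827, minus strand) recurs without a mismatch in Gm12251 (chr11:58392769-58393560, minus strand). Capitals mark the 31 bases before the junction, which are contiguous with the rest in the copy and in spliced RNA but separated by an intron in the gene.
Ndufs3: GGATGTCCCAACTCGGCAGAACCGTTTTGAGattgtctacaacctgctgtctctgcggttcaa
Gm12251: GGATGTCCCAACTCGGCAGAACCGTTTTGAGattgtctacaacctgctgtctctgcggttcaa

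The share of counts given to these copies differed between genes, stages and, in places, libraries. Of the counts of mt-Co3 and Gm28437 together, 61.6% to 71.5% were listed under the copy in OPC libraries and 91.7% to 98.2% in OL libraries. Of those of mt-Nd4l and Gm10222, 89.5% to 98.1% were under the copy in OPCs and 91.7% to 97.2% in OLs. The level listed for mt-Co3 or mt-Nd4l thus holds the smaller share of the counts of its pair. For Ndufs3 the copy held 0% to 0.442% in OPC libraries and 52.4% to 55.8% in OL libraries, and for Ndufs5 and BC002163 0% to 0.861% and 33.9% to 40.7%. The tables of the 2 stages also list different gene lengths: among 8995 genes with 1 annotated transcript and introns, the length equalled the spliced transcript in about 89.8% of cases in OPC files and the whole gene span, introns included, in about 90.0% in OL files. The OL tables listed 33 of the 34 nuclear members as longer than the OPC tables did, all but Ndufv1, and all 13 mitochondrial genes, which have no introns, at the same length. The files also list an effective length, on which TPM are computed. Over all genes its median shortfall from the listed length was 210.3 to 271 bases in OPC files. In OL files it was 69.6 to 72.8 bases. Quantification thus differed between the stages in this respect as well, and the reason was not tested. Levels of members of both genomes are therefore compared within a stage. Changes are also given with each copy's counts added to its gene, an alternative chosen after the data were seen.

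**Figure D1:**
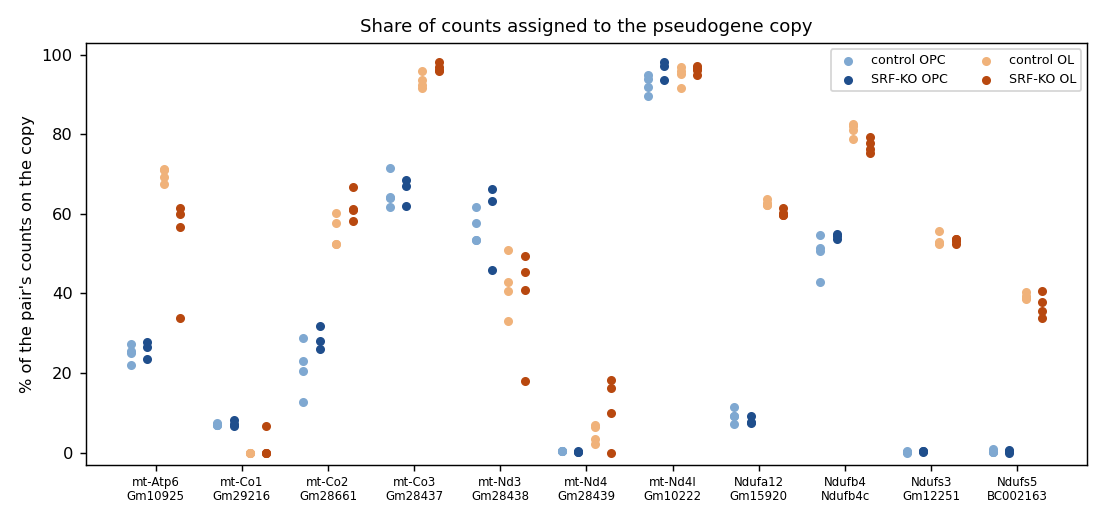
Percent of the counts of a gene and its pseudogene copy together that the files list under the copy (vertical axis), for the 7 mitochondrial and 4 nuclear members with such a copy, 1 point per library, coloured by group. OPC and OL libraries separate for mt-Co2, mt-Co3, mt-Atp6, Ndufa12, Ndufb4, Ndufs3 and Ndufs5, and narrowly for mt-Co1 (6.80% to 8.11% in OPCs, 0% to 6.6% in OLs). SRF-KO OL replicate 4 lies apart from the other OL libraries for mt-Co1 (6.6%), mt-Atp6 (33.8%), mt-Nd3 (18%) and mt-Nd4 (0%).

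In OPCs, where the deposited TPM values (a level per transcript length) refer to spliced transcripts, the members spanned a wide range. Of the mitochondrial genes, mt-Atp6, an ATP synthase subunit, had a median of 11588 TPM over the control libraries, mt-Co1 10736 and mt-Co2 9764. Next in order were mt-Cytb with 7774 TPM, mt-Co3 with 3902 and mt-Nd1 with 3717. The remaining ND genes were lower, from 1408 TPM for mt-Nd3 through mt-Nd4, mt-Nd2, mt-Nd5 and mt-Nd6 to 113 for mt-Nd4l. Ranges over the 4 controls overlapped between mt-Atp6, mt-Co1 and mt-Co2, between mt-Co1 and mt-Cytb, between mt-Co3 and mt-Nd1, and between mt-Nd3, mt-Nd4 and mt-Nd2. This is the order of the listed levels, and it moves with the split between gene and copy. With the copy's TPM added, the control medians were 11912 for mt-Co3, next to mt-Co2 at 12244, and 1678 for mt-Nd4l, no longer the lowest. The value of mt-Atp8, 13466 TPM, rests on an effective length of 25.7 to 40 of its 204 bases and is not ranked. Among the nuclear members Ndufb8, an accessory subunit of the membrane arm, had the highest TPM, 788. Ndufa11, another membrane arm accessory subunit, had the lowest, 35.1, at a listed length of 2661 bases. These ranks depend on the length. By mean CPM in control OPCs, which is not divided by length, Ndufv2 was highest (261.3) and Ndufb4 lowest (34.1). Ndufb8 had 210.8 and Ndufa11 62.3.

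The OPC comparison asks whether subunits of both genomes differ together once SRF is lost in dividing precursors. Values were mostly a little higher in SRF-KO OPCs, by a median log2 change of 0.20 over the 13 mitochondrial genes and 0.28 over the 34 nuclear members, against -0.001 over the 13271 genes tested. Of the mitochondrial genes 12 were higher, and of the nuclear members 33. None of the 47 passed the edgeR quasi-likelihood test after Benjamini-Hochberg adjustment over all genes, where 0.0678% of genes did, and the smallest adjusted p was 0.259. At an unadjusted p under 0.05, 6 mitochondrial and 5 nuclear members were higher and 0 were lower, against 5.57% of all genes higher and 6.33% lower. DESeq2 called 0 of the 47 as well, with 4 mitochondrial and 3 nuclear members higher and 1 mitochondrial member lower at an unadjusted p under 0.05. Of all genes it called 0.558%, with 3.32% higher and 3.94% lower at that unadjusted level. Groups that did not overlap in TMM-scaled CPM (levels corrected for library composition), knockout above control, occurred for 4 mitochondrial and 0 nuclear members, where 5.96% of all genes did so. In the opposite direction there were 0 members against 6.25% of genes.

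Among the mitochondrial subunits of complex I, mt-Nd1 had 1798, 1957, 1843 and 2024 CPM in control OPCs 1 to 4 and 2180, 2227 and 2179 in SRF-KO OPCs 1 to 3. The groups did not overlap, and its log2 change was 0.19 (SE 0.062, edgeR adjusted p = 0.30). For mt-Nd5 the controls had 633, 791.7, 753.7 and 795.7 CPM and the knockouts 830.3, 924.7 and 833.5, again without overlap (log2 change 0.20, SE 0.085, adjusted p = 0.402). mt-Nd4 had 957.4, 1092, 1111 and 1241 CPM in controls and 1300, 1252 and 1420 in knockouts. These groups stood apart by little in CPM and overlapped after TMM scaling. mt-Nd2 had 607.5, 616.1, 520.5 and 657.8 CPM in controls and 690.9, 639.5 and 680.8 in knockouts, with overlap. Counts of mt-Nd3 were more scattered, at 205.2, 119, 65 and 126.7 CPM in controls and 240, 157.1 and 174.3 in knockouts. mt-Nd6, the subunit gene on the other DNA strand, had 77.7, 56.3, 48.5 and 50.1 CPM in controls and 72.2, 67.5 and 79.7 in knockouts. In both genes 1 control, replicate 1, lay among the knockouts. mt-Nd4l alone was lower in knockouts, with 10.8, 6, 7.76 and 5.19 CPM in controls and 7.2, 2.09 and 3.75 in knockouts (log2 change -0.82, SE 0.402, adjusted p = 0.444). With the counts of its copy added it had 132.9, 118.7, 74.3 and 86.7 CPM in controls and 114.3, 110.4 and 135.9 in knockouts, and the log2 change was 0.19, so that the direction turned with the assignment of reads.

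The subunits of the later complexes had values of the same size. mt-Cytb had 4210, 4997, 5047 and 5147 CPM in control OPCs and 5550, 6318 and 5494 in knockouts, without overlap (log2 change 0.24, SE 0.074, adjusted p = 0.278). mt-Atp6 had 3156, 3583, 3743 and 3711 CPM in controls and 3949, 4958 and 4165 in knockouts, also without overlap, and the smallest adjusted p of the 47, 0.259 (log2 change 0.28, SE 0.081). The cytochrome c oxidase genes overlapped between groups. mt-Co1 had 8155, 9906, 9958 and 10390 CPM in controls and 10900, 12570 and 10240 in knockouts. mt-Co2 had 3612, 3469, 2625 and 2857 CPM against 3603, 3877 and 3257, and mt-Co3 1590, 1704, 1725 and 1346 against 1987, 1890 and 1582. SRF-KO OPC replicate 3 was exceeded by 1 of the 4 controls for mt-Co1, by 2 for mt-Co2 and by 3 for mt-Co3. mt-Atp8 showed the smallest difference of the 13, with 354, 309, 332.4 and 260.8 CPM in controls and 291.5, 351.5 and 316.8 in knockouts (log2 change 0.008). With copies added, all 13 were higher, with a median log2 change of 0.22, and 9 had an unadjusted p under 0.05, where 5.59% of genes were higher at that level. None of these 9 passed the adjusted test, the smallest adjusted p being 0.225.

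The nuclear members are described by role, with no test between roles. The 6 core subunits of the matrix arm, which carry the flavin and iron-sulfur clusters or the quinone site, had a median log2 change of 0.04, and none had an unadjusted p under 0.05. All 6 are among the longer members, with listed lengths of 765 to 2304 bases, and change and length were related in OPCs, as given below. Ndufv1, the subunit that binds NADH, had 161.6, 165, 164 and 161.5 CPM in controls and 153.9, 168.9 and 164.9 in knockouts. The groups overlapped, and the log2 change was -0.02 (SE 0.075). Ndufs1, the largest iron-sulfur subunit, had 151.5, 146.9, 157.7 and 154.7 CPM against 145.2, 161.6 and 158.1. Its groups overlapped as well.

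The 18 accessory subunits named Ndufa, Ndufc, Ndufs4 to Ndufs6 and Ndufv3 had a median log2 change of 0.39, and the 10 named Ndufb one of 0.23. Ndufa1, a small membrane subunit encoded on the X chromosome, had 75.5, 48.4, 25.1 and 42.5 CPM in controls and 83.6, 85.3 and 78 in knockouts (log2 change 0.75, SE 0.268, adjusted p = 0.332). Its controls spread widely, from replicate 3 at the bottom to replicate 1, which came near the knockouts. Ndufa3 (chr7:3617373-3620327, plus strand), another short membrane subunit, had 77.7, 46.2, 29.9 and 42.7 CPM in controls and 73.7, 84.2 and 81.6 in knockouts (log2 change 0.67, SE 0.247, adjusted p = 0.337). Ndufa7, an accessory subunit of the matrix arm, had 119.9, 91.4, 45 and 67.3 CPM in controls and 122.1, 130.8 and 124.2 in knockouts (log2 change 0.61, SE 0.251, adjusted p = 0.388). The same order, replicate 1 highest and replicate 3 lowest among the controls, was seen in all 3 genes. Ndufb8, the highest by TPM, had 252.9, 238.9, 163.8 and 187.9 CPM in controls and 253.3, 307.4 and 239.9 in knockouts (log2 change 0.32). Ndufa11, the lowest by TPM, had 86.8, 70.7, 38.6 and 53.2 CPM against 75.3, 99.2 and 77.2 (0.40). Both again had replicates 1 and 3 at the ends of the control range.

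**Figure D2:**
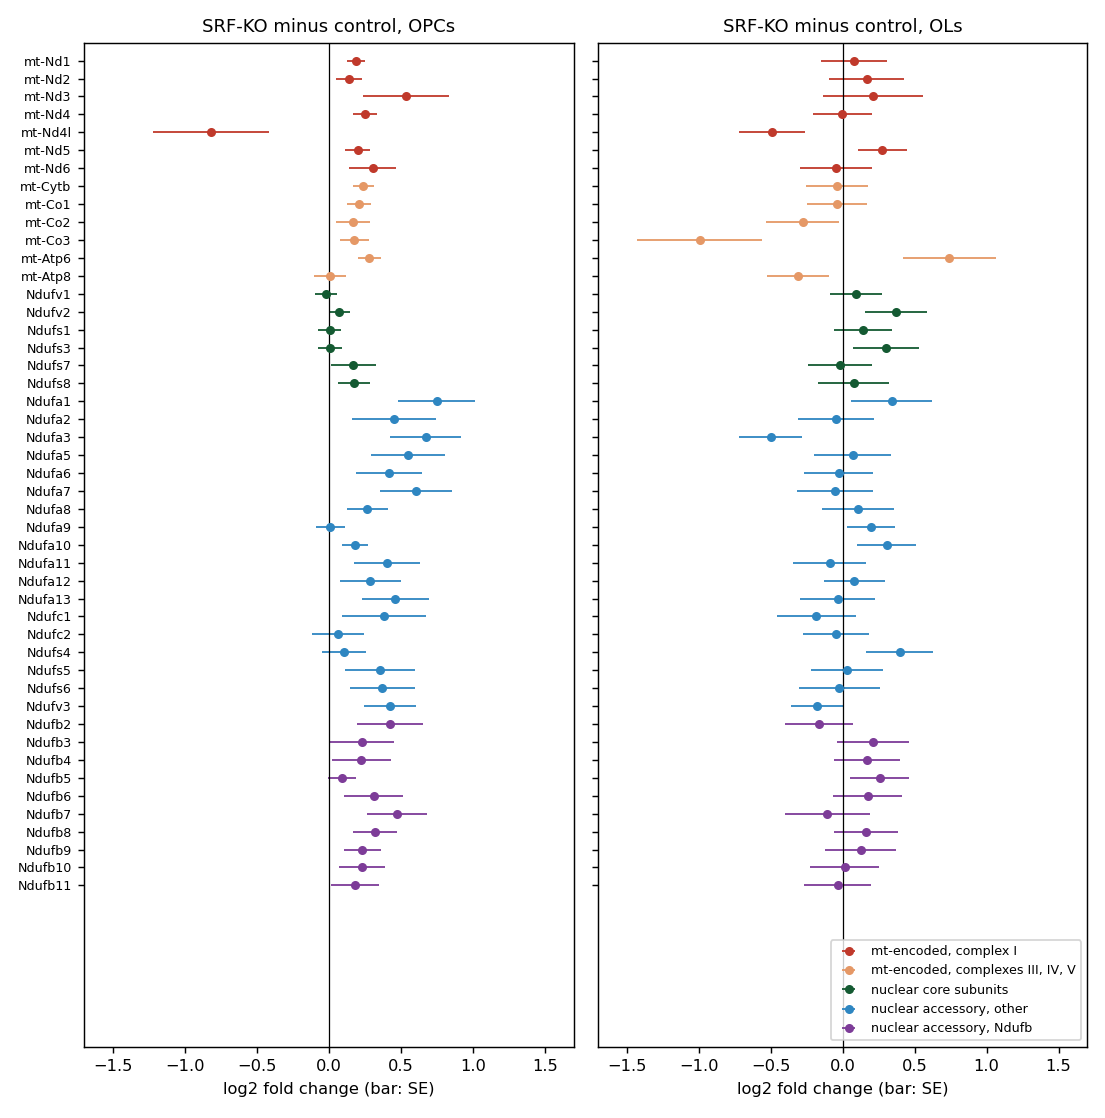
Log2 fold change of each of the 47 members (SRF-KO minus control, horizontal axis, bars 1 SE from edgeR) in OPCs (left) and OLs (right), coloured by role. Most OPC values lie above 0, with medians of 0.20 for mitochondrial and 0.28 for nuclear members, while OL values lie on both sides of 0 and have wider bars.

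Control OPC libraries disagreed among themselves over the nuclear members. After TMM scaling, the median of the 34 members relative to the control mean was 0.47 log2 units in control replicate 1, 0.18 in replicate 2, -0.52 in replicate 3 and -0.17 in replicate 4. In SRF-KO OPCs 1 to 3 it was 0.28, 0.48 and 0.21. The knockouts thus lay inside the range of the controls apart from replicate 2, which exceeded control replicate 1 by little. The 13 mitochondrial genes varied much less, with medians of 0.04, 0.05, -0.006 and 0.08 in controls and 0.19, 0.23 and 0.16 in knockouts, so that all 3 knockouts lay above all 4 controls. Without control replicate 1 the nuclear median was 0.46 and 23 nuclear members were higher at an unadjusted p under 0.05, where 6.5% of all genes were, but 0 of the 47 passed the adjusted edgeR test (smallest adjusted p = 0.0807). The mitochondrial median was then 0.19. Without control replicate 3 the nuclear median was 0.16. With any library other than control replicate 1 left out, 1 to 6 nuclear members were higher at an unadjusted p under 0.05. There was 1 without control replicate 4, where 610 of 13098 genes were higher, and 6 without control replicate 2, where 643 of 12926 were. In the remaining fits there were 2 or 3, where 538 to 692 genes were higher of 13214 to 13632 tested.

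The nuclear changes followed gene length in OPCs. Across the 34 members, which are genes and not independent replicates, the log2 change and the listed length had a Spearman rho of -0.72. The 17 shortest members, of 351 to 683 bases, had a median log2 change of 0.42, and the 17 longest, of 722 to 2661 bases, one of 0.17. For single libraries the level was taken relative to the mean of the 4 controls. Its rho with length was -0.76, -0.31, 0.78 and 0.23 in control OPCs 1 to 4 and -0.78, -0.66 and -0.74 in SRF-KO OPCs 1 to 3. Deviations of the controls from their own mean cancel, so opposite signs among them are partly built in. The knockouts are set against that same mean and do not add separate evidence to the -0.72. Short members were thus relatively high in all 3 knockouts and in control replicate 1, and relatively low in control replicate 3. When each library's smooth trend with length over all genes was removed, the median log2 change was 0.12 for nuclear and 0.08 for mitochondrial members. The change of mt-Atp6 was then 0.04 (edgeR adjusted p = 0.941) and that of mt-Nd1 0.10, while mt-Cytb had 0.18 and mt-Nd5 0.18. Ndufa1, Ndufa3 and Ndufa7 had 0.49, 0.33 and 0.39 (edgeR adjusted p = 0.0749, 0.209 and 0.102). At an unadjusted p under 0.05, 8 nuclear and 4 mitochondrial members were higher and 2 mitochondrial members lower. Of the 13271 genes, 850 were higher and 952 lower at that level. None of the 47 passed the adjusted test, where 19 genes were called higher and 10 lower. In OLs rho of the change with listed length, which there includes introns, was 0.37.

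**Figure D3:**
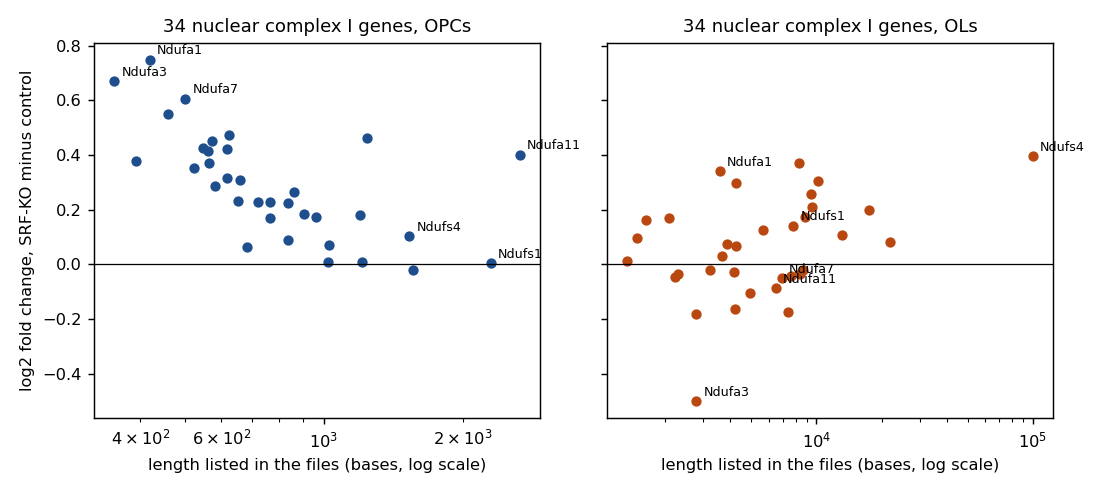
Log2 fold change of the 34 nuclear members (vertical axis, SRF-KO minus control) against the gene length the files list (horizontal log axis, bases), OPCs left and OLs right, with 6 members named. In OPCs the shortest members, such as Ndufa3 and Ndufa1, have the highest values and Spearman's rho is -0.72, while in OLs, whose lengths include introns, rho is 0.37.

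Summed over members, the 13 mitochondrial genes had 25370, 28610, 27780 and 28610 CPM in control OPCs 1 to 4, a mean of 27590 ± 1534 (SD, n = 4), and 31600, 35230 and 30430 in SRF-KO OPCs, a mean of 32420 ± 2505 (SD, n = 3). All 3 knockouts exceeded all 4 controls. The 34 nuclear members summed to 4415, 3889, 2930 and 3231 CPM in controls (3617 ± 666.2, SD, n = 4) and 4127, 4678 and 4196 in knockouts (4333 ± 300.1, SD, n = 3), and 1 of the 3 knockouts exceeded every control. The log2 ratio of the sums was 2.52 to 3.25 in controls and 2.86 to 2.94 in knockouts, inside the control range. Nuclear-retained RNAs such as Malat1, which are held in the nucleus, summed to 722.6 to 1018 CPM in control and 948 to 1535 in SRF-KO OPCs, and their part in these sums was not tested.

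**Figure D4:**
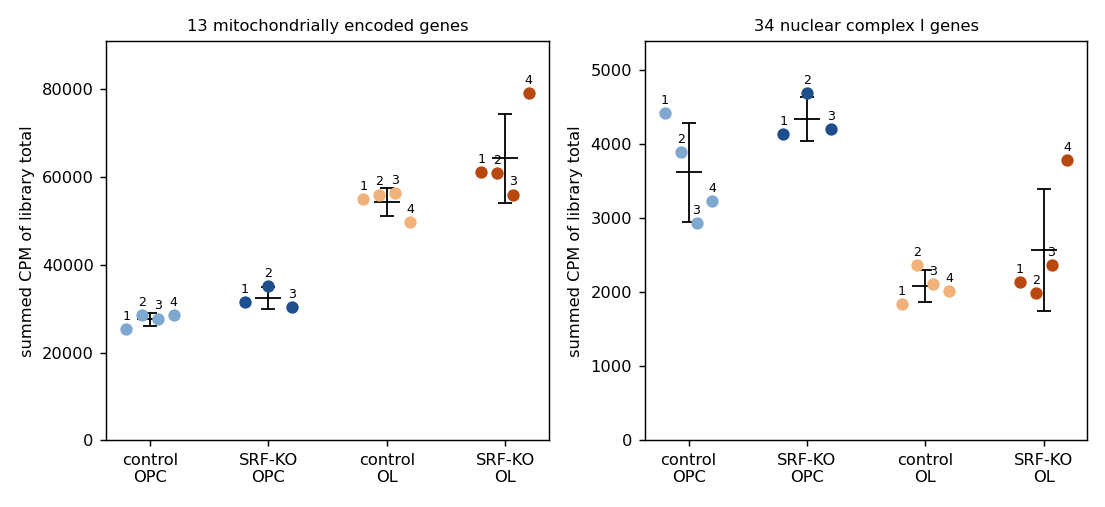
Summed CPM (of the library total) of the 13 mitochondrial genes (left) and the 34 nuclear complex I genes (right) in each of the 15 libraries, numbered by replicate, with the group mean and SD. In OPCs the mitochondrial sums of the 3 knockouts lie above the controls, and in OLs SRF-KO replicate 4 is the highest library in both panels (79080 and 3778 CPM).

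In OLs, where the question was the same after 3 days of differentiation, no common direction appeared. Srf RNA was lowered only in part in these knockouts, to 2.37 to 4.54 CPM against 6.61 to 8.47 in controls. The OL values therefore do not describe a full loss of Srf RNA. The median log2 change was -0.04 over the mitochondrial genes, of which 5 were higher and 8 lower, and 0.07 over the nuclear members, of which 20 were higher and 14 lower, against 0.02 over the 15193 genes tested. None of the 47 passed the adjusted edgeR test, which 0.296% of genes passed, and the smallest adjusted p was 0.404. At an unadjusted p under 0.05, 1 member was higher, mt-Atp6, and 2 were lower, mt-Co3 and Ndufa3, against 5.84% and 5.73% of all genes. DESeq2 called 0 of the 47, with 2 mitochondrial members higher and 2 mitochondrial and 1 nuclear member lower at an unadjusted p under 0.05. Of all genes it called 1.06%, with 3.09% higher and 3.76% lower at that unadjusted level. One member, mt-Nd5, had all knockouts above all controls in TMM-scaled CPM, where 4.19% of genes did, and 0 members lay entirely below, where 3.9% of genes did. Scaling mattered in this stage: TMM factors ran from 0.833 to 1.09 in controls but from 1.03 to 1.13 in knockouts, and with library totals instead the median of all genes was 0.24. Relative to that shift the mitochondrial median was -0.04 and the nuclear one 0.05.

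mt-Nd5 had 2021, 2224, 2100 and 2217 CPM in control OLs 1 to 4 and 2824, 3003, 2994 and 3282 in SRF-KO OLs 1 to 4. Its groups did not overlap, and the log2 change was 0.28 (SE 0.168, adjusted p = 0.583), or 0.19 without SRF-KO OL replicate 4. mt-Nd1 had 4487, 4820, 4526 and 3974 CPM in controls and 5117, 5086, 4519 and 7326 in knockouts. mt-Nd2 had 1772, 1935, 1746 and 1559 CPM in controls and 2058, 1876, 1767 and 3517 in knockouts. In both genes the first 3 knockouts were within the controls or just above them and replicate 4 was far above them, and the log2 change of mt-Nd2 was 0.17 with replicate 4 and -0.16 without it. That of mt-Nd1 was 0.08 with it and -0.14 without it. mt-Nd4 had 4277, 4902, 4721 and 4457 CPM against 5216, 5012, 4502 and 6650. mt-Nd3 had 349.5, 334.6, 342.7 and 339.1 CPM against 387, 280.6, 283.7 and 878.6, and mt-Nd6 513.5, 578.1, 541.3 and 531.2 against 531.6, 456.3, 491.7 and 953.8. SRF-KO OL replicate 4 was again the highest library in these 3 genes, and for mt-Nd3 the log2 change was 0.21 with it and -0.38 without it. mt-Nd4l had 41.2, 30.3, 37.9 and 62.3 CPM in controls and 35.8, 45.8, 21.5 and 35.4 in knockouts (log2 change -0.49, adjusted p = 0.45). The change was -0.14 with its copy added and -0.52 without SRF-KO OL replicate 4.

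mt-Co3 had 940.8, 952.8, 788.1 and 393.3 CPM in control OLs and 475.2, 373.8, 190 and 796 in SRF-KO OLs. The ranges overlapped, since control replicate 4 was as low as the knockouts and knockout replicate 4 as high as the controls, and the log2 change was -0.99 (SE 0.433, adjusted p = 0.409). With Gm28437 added the same libraries had 11340, 12400, 12330 and 9781 CPM in controls and 12300, 12060, 10850 and 18740 in knockouts, and the log2 change was 0.005. mt-Atp6 had 2495, 2758, 2823 and 2153 CPM in controls and 3945, 4041, 3294 and 8665 in knockouts, so that all knockouts were above the controls in CPM, though not after TMM scaling (log2 change 0.74, SE 0.32, adjusted p = 0.404). With Gm10925 added its change was 0.04, and without SRF-KO OL replicate 4 it was 0.28. Of that pair the copy held between 67.6% and 71.3% in controls and between 33.8% and 61.4% in knockouts. The other genes gave smaller differences. mt-Co1 had 21820, 21990, 22820 and 20980 CPM against 24580, 25450, 22820 and 27020, and mt-Cytb 11320, 10940, 10840 and 9353 against 11730, 11740, 11120 and 14080. mt-Co2 had 3138, 2946, 3607 and 2497 CPM against 2760, 2222, 2668 and 4172, and mt-Atp8 1874, 1631, 1587 and 1252 against 1577, 1414, 1372 and 1705 (log2 change -0.31, adjusted p = 0.647, and -0.41 without SRF-KO OL replicate 4). In mt-Co1, mt-Cytb and mt-Co2 replicate 4 was the highest knockout. For mt-Atp8 the controls covered the whole range of the knockouts.

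Of the nuclear members in OLs, the core subunit Ndufv2, which carries an iron-sulfur cluster, had 66.7, 88.8, 75.6 and 80.2 CPM in controls and 87.9, 97.2, 116.2 and 167.7 in knockouts (log2 change 0.37, SE 0.212, adjusted p = 0.555). Ndufs4, an accessory subunit needed for stable complex I, had 47.7, 70.2, 64.2 and 69.2 CPM in controls and 74.5, 70.1, 94.8 and 144 in knockouts (0.40, adjusted p = 0.563). Ndufa10 had 77.5, 87.9, 75.8 and 82.3 CPM in controls and 92, 104.4, 104.2 and 166 in knockouts (0.31, adjusted p = 0.624). In these 3 genes the knockouts lay near or above the highest control in CPM, and replicate 4 was the highest. Without replicate 4 the log2 changes were 0.09 for Ndufv2, 0.07 for Ndufs4 and 0.04 for Ndufa10. Ndufa3 was lower in 3 of the 4 knockouts, with 56.6, 63.3, 57 and 53.5 CPM in controls and 49.9, 33.4, 41.4 and 66.6 in knockouts (log2 change -0.50, SE 0.217, adjusted p = 0.408). Ndufv3 had 54.5, 68.4, 65.1 and 64.7 CPM against 56.4, 51.2, 68.3 and 85.6 (-0.18), and Ndufb2 28.8, 37.2, 33.4 and 32.3 against 31.1, 24.7, 28.1 and 53.8 (-0.16). Both overlapped widely, and both changes were positive, 0.05 and 0.06, with library totals in place of TMM factors. Without SRF-KO OL replicate 4 they were -0.39 and -0.50. The nuclear genes of highest and lowest TPM in the OPCs overlapped between groups. Ndufb8 had 88.5, 116.3, 103.7 and 100.1 CPM against 112, 106.1, 116.4 and 197.5, and Ndufa11 41.6, 59.6, 51.8 and 46.4 against 44, 37.4, 52.8 and 85.8.

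The OL medians of both genomes depended on SRF-KO OL replicate 4. Relative to the control mean after TMM scaling, the median of the mitochondrial genes was 0.38 log2 units in replicate 4 and -0.06, -0.08 and -0.32 in SRF-KO OLs 1 to 3, and the nuclear median was 0.75 in replicate 4 and -0.18, -0.34 and -0.11 in the others. Control OLs 1 to 4 had mitochondrial medians of 0.17, 0.12, 0.05 and -0.40 and nuclear medians of -0.05, 0.27, 0.05 and -0.27. Control replicate 4 thus lay with the low knockouts in both genomes. In replicate 4 of the knockouts 33 of the 34 nuclear members were above the control mean. The exception, singled out after its values were seen, was Ndufs1, with 72.2, 74.6, 71.3 and 83.1 CPM in controls, 111.1, 109.2 and 115 in SRF-KO OLs 1 to 3 and 53.8 in replicate 4. It was above the controls in the first 3 knockouts and below them in replicate 4, the reverse of most members.

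Without SRF-KO OL replicate 4 the medians were -0.17 for mitochondrial and -0.30 for nuclear members, against -0.005 for all genes, and 40 of the 47 were lower. That library was singled out by its high values in these same members. Lower changes without it are therefore partly built in, and the calls below are no separate evidence of a decrease. With any other OL library left out, 0 members were called. The adjusted edgeR test then passed 4 members, all lower: mt-Co3 (log2 change -1.44, adjusted p = 0.045), Ndufa3 (-0.74, adjusted p = 0.0204), Ndufc1 (-0.60, adjusted p = 0.0362) and Ndufb2 (-0.50, adjusted p = 0.0496), where 2.62% of genes were called lower. At an unadjusted p under 0.05, 5 mitochondrial and 17 nuclear members were lower, against 12.3% of genes, and 1 member was higher, Ndufs1 (0.30, edgeR adjusted p = 0.0731), against 9.65%. With copies added as well, mt-Co3 lost its call and the other 3 kept theirs, where 2.65% of genes were called lower. With 1 other library left out, the nuclear median was -0.02 without control OL replicate 4 and 0.05 to 0.17 otherwise, and the mitochondrial median was -0.13 without control OL replicate 4 and -0.02 to 0.06 otherwise. SRF-KO OL replicate 4 had the highest share of mitochondrial rRNA of the 4 knockouts, 6.33% of counts against 3.48% to 5.13%, and the highest Malat1, 0.452% against 0.215% to 0.264%, in a total of 5133146 counts. Control OLs had 4.40% to 5.97% of mitochondrial rRNA and 0.313% to 0.403% of Malat1. The part of these in the member values of that library was not tested.

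**Figure D5:**
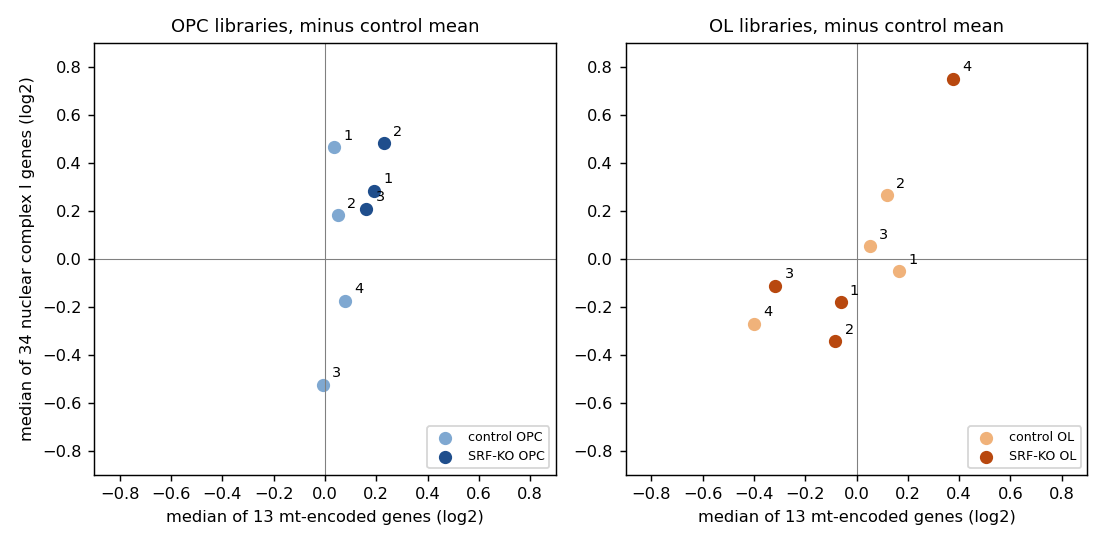
Median log2 level of the 34 nuclear members (vertical axis) against that of the 13 mitochondrial genes (horizontal axis) in each library after TMM scaling, relative to the mean of the stage's controls, numbered by replicate. SRF-KO OL replicate 4 lies at 0.38 and 0.75, away from the other OL libraries, and in OPCs the controls spread along the nuclear axis, from -0.52 to 0.47, more than along the mitochondrial one.

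Library by library, the medians of both genomes lay on the same side of the control mean in 7 of 8 OL libraries and in 6 of 7 OPC libraries, but with library totals in 5 of 8 and 5 of 7. The points share the library's scaling factor, so they do not give independent evidence of a common movement. In SRF-KO OLs with TMM scaling both medians were negative in replicates 1 to 3 and positive in replicate 4. Summed CPM of library totals gave a different picture of the mitochondrial genes: 55050, 56040, 56480 and 49760 in control OLs and 61240, 60990, 56040 and 79080 in SRF-KO OLs. By these sums 3 of 4 knockouts exceeded every control, and after TMM scaling 1 of 4 did, with 66080, 63200, 62020 and 45570 in controls and 56440, 56950, 49510 and 76410 in knockouts. The nuclear sums were 1837, 2362, 2106 and 2018 CPM in controls and 2133, 1984, 2360 and 3778 in knockouts. Of these, replicate 4 alone exceeded the controls, also after TMM scaling. Group means were 54330 ± 3104 and 64340 ± 10110 CPM for the mitochondrial and 2081 ± 218.4 and 2564 ± 824.2 for the nuclear sums (SD, n = 4 each, control first).

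Whether the knockout effect differed between the stages was tested with the interaction over all 15 libraries. None of the 47 members passed the adjusted edgeR test, which 0.112% of genes passed, and DESeq2 called 0 as well. At an unadjusted p under 0.05 the effect was lower in OLs than in OPCs for 3 members, mt-Co3, Ndufa3 and Ndufv3, against 4.65% of all genes, and higher for 0, with the same counts of 3 and 0 in DESeq2. Over all genes DESeq2 called 0.58%, with 3.09% lower and 2.99% higher at that unadjusted level. Ndufa3, higher in SRF-KO OPCs and lower in SRF-KO OLs, had the largest difference, -1.19 log2 units (SE 0.36, adjusted p = 0.263), and passed with adjusted p = 0.0277 when genes with low counts were not filtered out. Since OPC and OL files count different gene bodies and the stages differ in virus, stage and quantification cannot be told apart in this contrast.

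Other genes of oxidative phosphorylation were examined as lists. None of the 4 nuclear genes of complex II, 9 of complex III, 11 of complex IV or 16 of complex V passed the adjusted edgeR test in either stage, nor did any of 15 complex I assembly factors, 19 genes of mitochondrial DNA expression or 9 regulators of mitochondrial biogenesis. In OPCs their median log2 changes were 0.08, 0.37, 0.30 and 0.19 for complexes II to V, -0.03 for assembly factors, 0.01 for mitochondrial DNA expression and -0.19 for biogenesis regulators. In OLs they were 0.19, 0.13, -0.17 and -0.12 for complexes II to V, 0.21 for assembly factors, 0.14 for mitochondrial DNA expression and -0.002 for biogenesis regulators. At an unadjusted p under 0.05 in OPCs these were 1 higher in complex III, and 1 higher and 2 lower among biogenesis regulators, against 5.57% of all genes higher and 6.33% lower. In OLs they were 2 assembly factors, 1 gene of complex II, 1 of complex V, 3 of mitochondrial DNA expression and 2 biogenesis regulators higher, and 2 of complex V lower, against 5.84% of all genes higher and 5.73% lower. Small cytosolic ribosomal protein genes, taken as another set of short and abundant transcripts, had medians of 0.05 in OPCs and -0.10 in OLs, with 0 of 15 at that level in either stage.

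The promoters of 31 of the 34 nuclear members were found in the RefSeq promoter table, as windows of 250 bases before to 50 after a start site, and were searched on both strands. None held the CArG box, the SRF motif, which was present in at least 1 window of 1.81% of all genes in the table. The YY1 motif AAGATGGCG was found in 5 members, Ndufa9, Ndufc1, Ndufs4, Ndufs6 and Ndufs7, 16.1% of those matched, and in 1.64% of all genes. The NRF1 motif was found in Ndufa11 (3.2% of those matched, 1.07% of all genes) and the ETS motif CCGGAAG in Ndufb6, Ndufb7, Ndufs3 and Ndufs8 (12.9% and 9.93%). These matches describe letters in a window and not binding.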

How the data were processed

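PolyA RNA from 15 mouse cultures was made into Smart-seq2 libraries, which do not mark strand, and sequenced as single reads of 63 bases, per the labels' protocols. The authors used bcl2fastq, STAR and RSEM with builds GRCm38 and Rnor_6.0, per the submitters' processing notes (versions not given there). Each deposited table holds the authors' RSEM expected counts per gene, which share out reads that match several genes, with TPM, which were used for OPC levels only, and FPKM, which were not used. Titles gave the groups. Unlike the sample titles, the treatment tag of the Cre lentivirus OLs ends in "control", and a series-level text mentions Olig2-Cre and mesenchymal stem cells. Symbols matched 45143 of 45706 gene IDs.

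For the tests, counts were rounded to whole numbers and fitted in R 4.3.3 by edgeR 4.0.16 (filterByExpr, TMM, quasi-likelihood F-test, Benjamini-Hochberg adjustment over all genes, threshold 0.05). An SE is the absolute log2 change divided by the square root of F. Alternatives were library totals, scaling without mitochondrial genes, DESeq2 1.42.0, no low-count filter, the replicate block, removal of each library's lowess trend with gene length, leaving out each library, and, chosen after the data were seen, adding the counts of pseudogene copies found with BLAST 2.17.0 (at least 98% identity, a level also set after seeing the data, over at least 100 bases). The edgeR steps were tested on simulated data. Coordinates are GENCODE vM21, GRCm38. Members and lists were chosen with earlier results of these data known. Named are all mitochondrial members, in each stage and genome the 3 members with the smallest p in each direction, and members with adjusted p under 0.05. The nuclear members of highest and lowest TPM in control OPCs are named as well. No p is given for any sum or median over members.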

Additional observations from a re-analysis of the deposited data

Results flagged for a closer look

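In groups of 4 libraries, the highest or lowest was set apart when its gap to the nearest other library took up more of the group's range than Dixon's 95% critical value allows. Of 117 groups examined 12 met this. Chance alone gives about 1 in 20 for independent groups, but these share libraries and counts. Whether 12 exceeds chance therefore cannot be judged. Of the 12 groups 8 concern SRF-KO OL replicate 4. It was highest for mt-Nd2 (3517 CPM, others 1767 to 2058), mt-Nd6 (953.8, others 456.3 to 531.6), mt-Atp6 (8665, others 3294 to 4041), Ndufa1 (119.4, others 49.8 to 54.2), Ndufa7 (167.9, others 73.8 to 87) and Ndufa10 (166, others 92 to 104.4). It was also highest for mt-Co2 with its copy Gm28661 (10710 CPM, others 6406 to 7106). Gm29216, the copy of mt-Co1, held 6.6% of that pair's counts in it and 0% to 0.00606% in the other SRF-KO OLs. In control OL replicate 3 Gm29216 held 0.0186%, against 0.00269% to 0.00426% in the other control OLs.

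Control OPC replicate 1 was lowest of its group for mt-Cytb (4210 CPM, others 4997 to 5147) and for mt-Atp6 with its copy Gm10925 (4046 CPM, others 4932 to 4990). Control OL replicate 4 was lowest for mt-Atp6 with that copy (7457 CPM, others 8692 to 8942).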

How the results depend on the processing

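The number of members called was 0 in OPCs under every alternative run. Leaving out 1 library left it at 0 in the interaction, which had 1 (Ndufa3) with no low-count filter, and gave 0 to 4 in OLs (4 without SRF-KO OL replicate 4). The OPC median of mitochondrial genes, 0.20, was 0.076 after removal of the length trend and 0.17 to 0.23 with 1 library left out, and the nuclear one 0.16 to 0.46. The OL medians ran from -0.17 to 0.06 (mitochondrial) and -0.30 to 0.17 (nuclear). Directions turned, among others, for mt-Atp8 in OPCs (0.008) with the length trend removed (-0.84), for mt-Nd4l in OPCs (0.19) and mt-Co3 in OLs (0.005) with copies added, for Ndufv3 (0.046) and Ndufb2 (0.055) in OLs with library totals, and with 1 library left out for Ndufv1 in OPCs (-0.047 to 0.01) and mt-Nd2 in OLs (-0.16 to 0.30), and for mt-Nd1 (-0.14) and mt-Nd3 (-0.38) without SRF-KO OL replicate 4. Of all 47, 18 turned in OLs without that library, leaving 7 higher in place of 25, 4 to 12 with another library left out, 17 with library totals and 5 with copies added (mt-Nd4, mt-Co3, Ndufa12, Ndufs5 and Ndufb4). In OPCs 1 to 4 turned with 1 library left out and 7 with the length trend removed. Mitochondrial sums put 3 SRF-KO OLs above every control, and 1 with TMM scaling. The causes were not tested beyond what each alternative itself changes. Deviations of same-numbered OPCs from their group means correlated at 0.009, 0.121 and -0.006, and of OLs at 0.016, -0.388, -0.163 and -0.416. Differently numbered pairs gave -0.100 to 0.073 in OPCs and -0.383 to 0.430 in OLs. With groups of 3 or 4 libraries these values cannot decide whether replicate numbers pair samples. With the replicate block 0 members were called in either stage, and the medians were 0.23 and 0.24 in OPCs and -0.03 and 0.001 in OLs. Depth limits little for most mitochondrial genes. The listed level of mt-Nd4l was low, with 2.09 to 10.8 CPM in OPCs, where its copy Gm10222 held 89.5% to 98.1% of the pair's counts. With the copy added it had 74.3 to 135.9 CPM.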
